A study of Oryza sativa Indica Group with 23 samples.

Results

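The C3H zinc finger protein genes of rice, named OsC3H with a number, were followed in roots of 4 genotypes with and without salt. A gene counted as a member where the RefSeq gene table (assembly ASM3414082v1) gave it such a name, which held for 53 genes, and 50 of these had a probe set of their own among 17905 genes measured in this way. OsC3H38, OsC3H56 and OsC3H67 had none and were not analysed here. For the 14 members with several probe sets, the one with the highest mean over the 8 genotype-by-treatment groups was used. C3H (CCCH) proteins fold a short loop around a zinc ion held by cysteines and a histidine. Many of them bind RNA and act on splicing, poly(A) tail formation or mRNA decay, and some act in the nucleus on transcription. In plants, members with a tandem pair of such fingers are known from responses to drought, salt, abscisic acid and senescence.

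The arrays were 12 of salt-treated and 11 of control roots, and each held RNA of 1 labelled biological replicate. The salt groups were FL478, IR29, IR63731 and Pokkali, with 3 arrays each, and the control groups were FL478, IR63731 and Pokkali with 3 arrays each and IR29 with 2. IR29 is known as sensitive to salt and the landrace Pokkali as tolerant, FL478 is an inbred tolerant descendant of these parents, and IR63731 is known as tolerant too. All plants grew in sand with nutrient solution and all were taken at 30 days, and the salt groups received NaCl and CaCl2 at a molar ratio of 5 to 1 from day 22, in 2 steps over 3 days, to a final 7.4 dS per m. The comparisons ask which members changed under salt, whether the genotypes changed them to different extents, and whether the genotypes differed without salt.

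All values are on the log2 scale of the deposited expression values, so that a difference of 1 is a doubling. Array medians lay between 4.31 and 4.41 over the arrays, whose small number limits how precise any value can be. The summed linear level of 8 root marker genes ranged from 13750 to 24910 over salt arrays and from 11470 to 24100 over control arrays, while that of 4 leaf and photosynthesis markers ranged from 137 to 233 in salt and from 153 to 883 in control arrays. The 6 seed markers summed to between 215 and 423 in salt and between 230 and 402 in control arrays, and 6 anther markers to between 70.4 and 90.5 in salt and between 65.1 and 79.0 in control arrays. At an adjusted p under 0.05, 1 of 8 root markers was higher under salt, the phosphate transporter OsPT6 (0.51). Among 6 anther markers 1 was higher, MSP1 (0.36, mean level 4.54), and among 6 seed markers 1 was lower, the storage protein gene GluB5 (-0.33, mean level 3.27). No leaf marker passed. Each list held changes of both signs except that of leaf markers, with positive ones in 6 of 8 root, 4 of 6 anther and 2 of 6 seed markers. The part of the markers in the results was not tested. In these whole roots, fewer cells of a type and less RNA per cell cannot be told apart. Over probe sets at least 2 log2 units apart between genotypes, the arrays labelled FL478 salt replicate 2, IR29 control replicate 1 and FL478 control replicate 3 lay 65.7%, 45.5% and 17.4% of the way to the IR63731 mean, whereas no other array lay more than 5.04% of the way to another genotype. Results are therefore also given without these 3 arrays. The mean 3′ minus 5′ signal of rice control transcripts, a measure of RNA quality and labelling, was 0.689 ± 0.104 in salt arrays (SD, n = 12) and 0.603 ± 0.060 in control arrays (SD, n = 11). A clock gene measure was taken as the mean log2 level of 3 genes that peak towards evening (GI, PRR1 and PCL1) minus that of CCA1, which peaks in the morning. It averaged -1.15 ± 2.10 in salt arrays (SD, n = 12) and -2.98 ± 2.19 in control arrays (SD, n = 11), and it was higher under salt in 11 of 11 pairs of the same genotype and replicate number, by up to 3.46. It also moved with the replicate number, with a median of -3.75 over arrays of number 3, 0.51 over number 2 and -3.05 over number 1. Both measures were also used as covariates.

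Most members gave a clear signal in roots. Mean levels over the 8 groups ran from 2.91 to 11.55, and 41 of 50 members lay above 6, while 33 lay above the median gene. Signals of different probe sets also depend on the probes, so the order of the members is one of signal and not of transcript number.

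The 3 highest signals belonged to OsC3H33, OsC3H24 and OsC3H2. OsC3H33 had its lowest, median and highest array at 10.82, 11.59 and 12.18 in salt roots, against 10.79, 11.62 and 12.11 in control roots. OsC3H24 varied least of the 3, with 10.24, 10.43 and 10.63 in salt roots, against 10.24, 10.42 and 10.72 in control roots. Salt and control arrays overlapped over most of their range for both. OsC3H2 is also known as OsDOS, a nuclear protein that delays leaf senescence. It had means of 9.99 to 10.64 in salt roots and 9.37 to 9.88 in control roots. Ehd4 (OsC3H20), known as a promoter of flowering, stayed within 0.29 over the 8 group means at a mean level of 9.82.

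Below a gap in the order lay OsC3H16 at 4.89 and then 8 members under 4, which were OsC3H10, OsC3H1, OsC3H34, OsC3H43, OsC3H40, OsC3H3, OsC3H54 and OsC3H47. These 8 fell between percentiles 3.03 and 13.6 of the genes measured, where a probe set carries little signal. OsC3H47 and OsC3H10, each known to raise drought tolerance of rice when overexpressed, were among them. OsC3H47 had its lowest, median and highest array at 2.65, 2.91 and 3.10 in salt roots, against 2.75, 2.90 and 3.20 in control roots. OsC3H54 had 2.64, 2.90 and 3.13 in salt roots, against 2.68, 2.91 and 3.29 in control roots. OsC3H3 had 2.57, 3.21 and 3.72 in salt roots, against 2.54, 3.14 and 3.38 in control roots, and salt and control arrays overlapped for each of the 3.

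**Figure D1:**
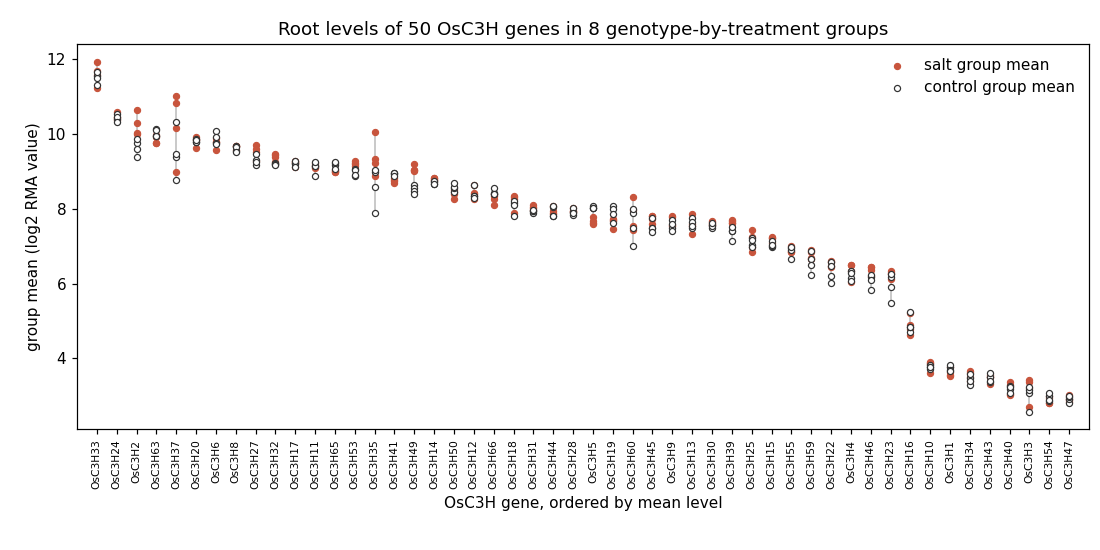
Group means (log2) of 50 OsC3H genes, ordered by mean level from OsC3H33 (11.55) to OsC3H47 (2.91); filled points are the 4 salt groups and open points the 4 control groups. The 8 members at the right lie under 4, and OsC3H37 and OsC3H35 span the widest ranges over groups, 2.25 and 2.17.

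Under salt, 8 members were higher and 3 lower in the mean of the 4 genotypes. OsC3H35, OsC3H2 and OsC3H49 rose most, by 0.56 to 0.75 on the log2 scale. OsC3H39, OsC3H46 (LIC), OsC3H53, OsC3H27 and OsC3H59 rose by 0.21 to 0.29. OsC3H5 fell by 0.35, and OsC3H41 (MKRN) and OsC3H66 fell by less than that. In all, 11 of 50 members (22%) passed limma's moderated test at an adjusted p under 0.05. The same test called 8.31% of all rice probe sets (4.95% higher and 3.36% lower) and 16.1% of the genes measured (10.7% higher and 5.41% lower), so the members' share was not far above that of genes. The median change of the members was 0.06, against 0.04 for genes and -0.01 for all rice probe sets. A positive change was found in 33 of 50 members, against 10504 of 17905 genes and 26104 of 57194 rice probe sets. Without the 3 arrays between genotypes, 4 members passed, which were OsC3H35, OsC3H49 and OsC3H2 (higher) and OsC3H66 (lower), where 4.73% of rice probe sets and 9.25% of genes did. With the 3′ minus 5′ signal as a covariate, 5 passed, which were OsC3H35, OsC3H49, OsC3H2 and OsC3H59 (higher) and OsC3H5 (lower), where 3.16% of rice probe sets and 6.42% of genes did. With the clock gene covariate 9 passed, all but OsC3H53 and OsC3H27, where 6.42% of rice probe sets and 12.6% of genes did.

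**Figure D2:**
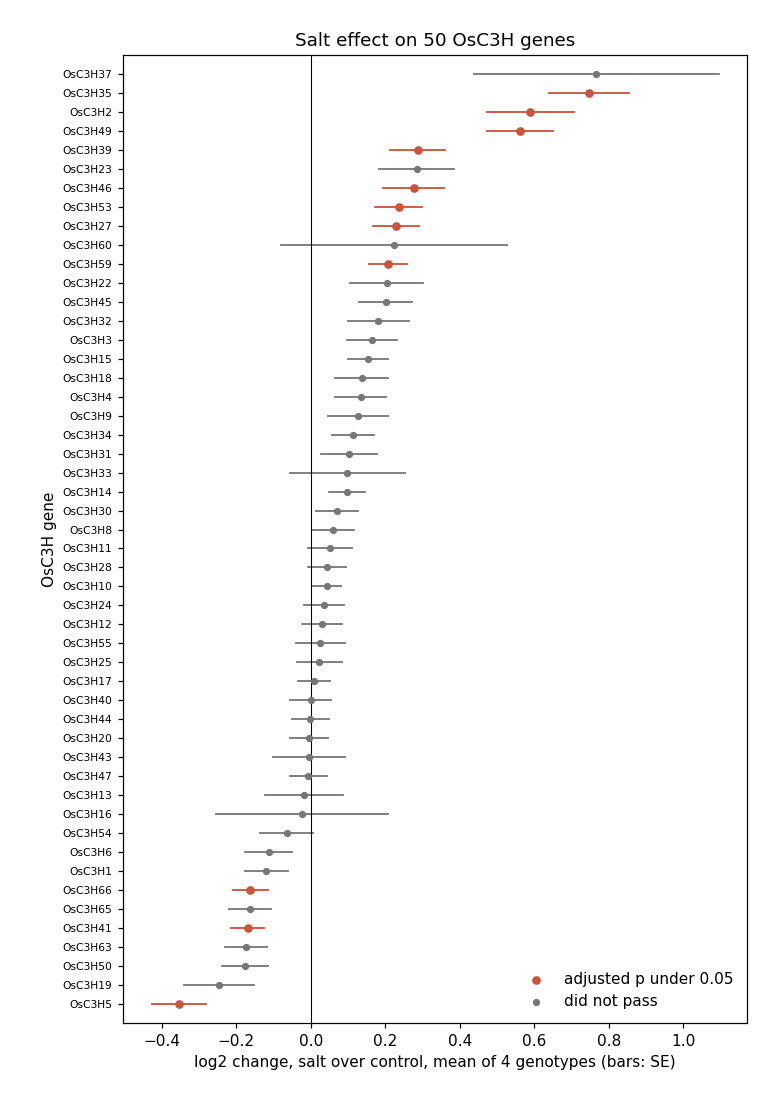
Log2 change, salt over control, in the mean of 4 genotypes for 50 OsC3H genes (points, with bars of 1 SE); coloured points passed an adjusted p under 0.05 and grey points did not. OsC3H37 has the largest change (0.77) but a wide bar (SE 0.33), while OsC3H35, OsC3H2 and OsC3H49 stand apart on the right and OsC3H5 on the left.

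OsC3H35 had the largest change among those that passed. It encodes the tandem zinc finger protein studied as OsTZF1, whose overexpression is known to delay senescence and to raise salt and drought tolerance. Its main probe set (RefSeq gene 4338037) read 9.27, 9.19 and 9.52 in FL478 salt roots, against 8.98, 8.95 and 8.99 in FL478 control roots. In IR29 it read 9.85, 10.27 and 10.07 in salt roots, against 9.14 and 8.95 in control roots. Salt and control arrays did not overlap in either genotype. IR63731 gave 8.74, 9.78 and 9.11 in salt roots, against 8.72, 8.71 and 8.33 in control roots. Pokkali gave 8.74, 9.31 and 8.60 in salt roots, against 7.81, 7.86 and 8.00 in control roots. The groups were thus apart in all 4 genotypes, in IR63731 by a narrow margin, and all 12 salt arrays lay above their genotype's control mean. In the mean of 4 genotypes the change was 0.75 (SE 0.11, limma adjusted p = 0.000262), or 1.68-fold. Both of its other probe sets rose as well, by 0.38 (adjusted p = 0.0330) and 0.52 (adjusted p = 0.00431). Leaving out single arrays kept the change between 0.68 and 0.81.

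OsC3H49 rose in the mean, with changes of 0.50 to 0.64 in the single genotypes. Its probe set (RefSeq gene 4342926) read 9.28, 9.07 and 9.26 in FL478 salt roots, against 8.74, 8.80 and 8.40 in FL478 control roots. It read 9.01, 9.25 and 8.87 in IR29 salt roots, against 8.72 and 8.36 in IR29 control roots. Neither genotype's groups overlapped. IR63731 had 9.00, 9.42 and 8.66 in salt roots, against 8.47, 8.73 and 8.23 in control roots, and here the lowest salt array lay below the highest control array. Pokkali had 8.95, 9.15 and 8.96 in salt roots, against 8.45, 8.47 and 8.23 in control roots, with no overlap. The change in the mean of 4 genotypes was 0.56 (SE 0.088, adjusted p = 0.000584), with all 12 salt arrays above the control mean.

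OsC3H2 (OsDOS) rose in the mean of 4 genotypes by 0.59 (SE 0.12, adjusted p = 0.00341) at its main probe set (RefSeq gene 4327304). In IR29 it read 10.81, 10.68 and 10.43 in salt roots, against 9.47 and 10.28 in control roots, and the array labelled replicate 1 of the control was the lower one. In IR63731 it read 10.22, 10.37 and 10.26 in salt roots, against 9.78, 10.09 and 8.89 in control roots. Control arrays were spread more widely than salt arrays in both genotypes, and the groups did not overlap. Pokkali read 9.93, 9.97 and 10.21 in salt roots, against 9.44, 9.35 and 9.33 in control roots. FL478 read 10.04, 9.87 and 10.07 in salt roots, against 9.64, 9.95 and 9.69 in control roots, and only here did the groups overlap. The main probe set is of a type that can match several transcripts, and the second one, which is not, rose by 0.73 (adjusted p = 0.00161). Without the 3 arrays between genotypes the main probe set's change was 0.50 (adjusted p = 0.0320).

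OsC3H5 was the member that fell most. Its main probe set (RefSeq gene 4326230) read 7.62, 7.73 and 7.55 in IR29 salt roots, against 8.16 and 7.98 in IR29 control roots. Pokkali gave 7.37, 7.59 and 7.84 in salt roots, against 8.00, 7.94 and 8.11 in control roots. The groups were apart in these genotypes. They overlapped in FL478, with 7.81, 7.47 and 7.77 in salt roots, against 8.19, 7.76 and 8.07 in control roots. They overlapped also in IR63731, with 7.67, 7.85 and 7.84 in salt roots, against 8.19, 7.74 and 8.14 in control roots. The change was -0.35 (SE 0.073, adjusted p = 0.00467), with all 12 salt arrays below the control mean of their genotype. Without the 3 arrays between genotypes it was -0.30 (adjusted p = 0.0511). A second probe set of the gene gave -0.17 (adjusted p = 0.181) and did not pass.

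**Figure D3:**
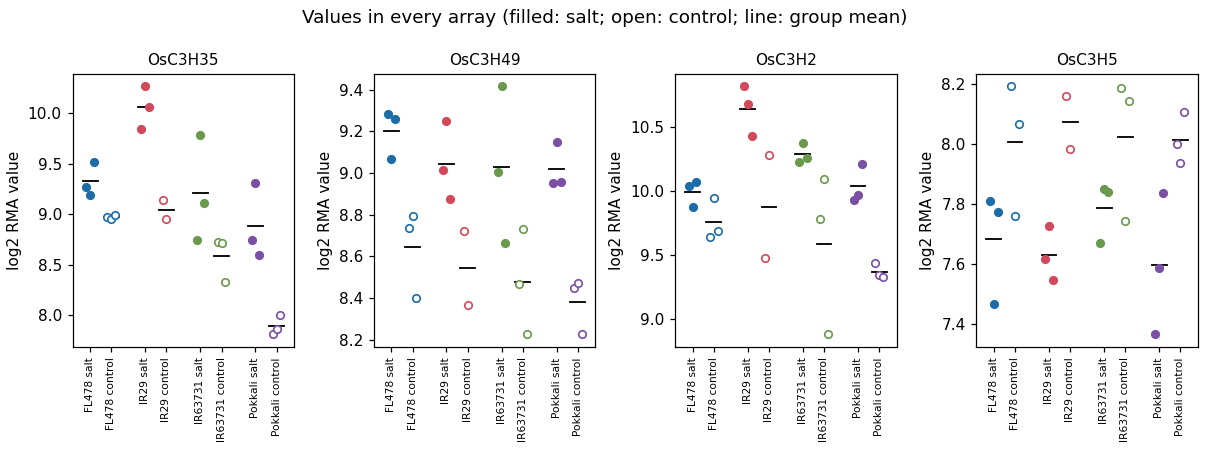
Log2 values of OsC3H35, OsC3H49, OsC3H2 and OsC3H5 in every array, by genotype, with filled points for salt and open points for control and a line at each group mean. Salt arrays of OsC3H35 lie above control arrays in every genotype, and salt means of OsC3H5 lie below control means in every genotype.

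The other 7 members that passed changed by 0.16 to 0.29 in size, and each lost its call in at least 1 of 10 other settings. OsC3H39 rose by 0.29 (SE 0.074, adjusted p = 0.0208), with all 12 salt arrays above the control mean. Its FL478 arrays were apart, at 7.94, 7.57 and 7.59 in salt roots against 7.05, 7.21 and 7.15 in control roots. The other genotypes' groups overlapped, with 7.49 to 7.90 in salt and 7.18 to 7.74 in control arrays, and without the array labelled IR29 control replicate 1 the change was 0.23 (adjusted p = 0.0828).

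LIC (OsC3H46) is known as a regulator of brassinosteroid signalling and leaf angle. It rose by 0.28 (SE 0.082, adjusted p = 0.0422). In FL478 it read 6.45, 6.35 and 6.27 in salt roots, against 5.87, 5.81 and 5.82 in control roots, which do not overlap. In the other genotypes it ranged from 5.88 to 6.65 in salt and from 5.80 to 6.42 in control roots, and the groups overlapped in each. Its call was lost on leaving out any of 16 of the 23 arrays, with adjusted p up to 0.121 without IR29 control replicate 2.

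OsC3H53, OsC3H27 and OsC3H59 rose by 0.24, 0.23 and 0.21 (adjusted p = 0.0239, 0.0263 and 0.0150). OsC3H53 lay between 8.96 and 9.44 in salt arrays and between 8.77 and 9.09 in control arrays, with FL478, IR29 and Pokkali groups apart. Its 2 other probe sets gave 0.16 (adjusted p = 0.105) and -0.05 (adjusted p = 0.758), so the direction was not shared by all 3. OsC3H27 lay between 9.11 and 9.73 in salt arrays and between 9.05 and 9.64 in control arrays, with IR29, IR63731 and Pokkali groups apart. OsC3H59 lay between 6.59 and 7.01 in salt arrays and between 6.18 and 6.94 in control arrays, with FL478 and IR29 groups apart. The calls of OsC3H27 and OsC3H59 were lost without the array labelled IR29 control replicate 1 (0.19 and 0.19, adjusted p = 0.0987 and 0.0552), that of OsC3H27 also without IR63731 salt replicate 2 (0.21, adjusted p = 0.0520), and that of OsC3H53 without IR29 control replicate 2 (0.23, adjusted p = 0.0517). OsC3H53 and OsC3H27 also lost their calls in 3 other settings. OsC3H53 changed by 0.26 (adjusted p = 0.0565) without the 3 arrays between genotypes, by 0.13 (adjusted p = 0.261) with the 3′ minus 5′ covariate and by 0.23 (adjusted p = 0.0548) with the clock gene covariate. OsC3H27 changed by 0.17 (adjusted p = 0.200), 0.21 (adjusted p = 0.145) and 0.17 (adjusted p = 0.110) in these settings, in the same order.

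MKRN (OsC3H41) encodes a makorin, a RING-type E3 ubiquitin ligase with C3H fingers. It fell by 0.17 (SE 0.044, adjusted p = 0.0217), reading 8.56 to 8.93 in salt arrays and 8.81 to 9.04 in control arrays, with only the Pokkali groups overlapping. OsC3H66 fell by 0.16 (SE 0.048, adjusted p = 0.0408), reading 7.99 to 8.50 in salt arrays and 8.26 to 8.62 in control arrays. Its groups were apart in IR29 and IR63731 and overlapped in FL478 and Pokkali. The call of OsC3H66 was lost on leaving out any of 17 of the 23 arrays, with adjusted p up to 0.0820 without IR29 control replicate 1.

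The other 39 members did not pass. Their changes ran from -0.25 (OsC3H19) to 0.77 (OsC3H37), 20 lay within 0.1 of no change, and for 21 the 95% confidence interval lay within 0.25 on either side of 0. Nearest to passing were OsC3H63 (-0.17, adjusted p = 0.0654), OsC3H15 (0.15, adjusted p = 0.0828) and OsC3H50 (-0.18, adjusted p = 0.0843). U2AF35A (OsC3H60), the small subunit of the factor that marks the end of an intron for splicing, had a change of 0.22 with an SE of 0.30. Ehd4 (OsC3H20) and OsC3H12, a gene known from resistance to bacterial blight, had changes of -0.0043 and 0.03.

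OsC3H37 varied widely between arrays of a group. It read 10.44, 10.65 and 9.35 in FL478 salt roots (replicate numbers 1, 2 and 3), against 9.09, 10.70 and 8.35 in control roots. In IR29 it read 9.23, 9.90 and 7.84 in salt roots, against 7.80 and 9.72 in control roots (numbers 1 and 2). Arrays of number 2 were high and those of number 3 low in both. IR63731 read 11.08, 10.70 and 10.73 in salt roots, against 9.33, 10.63 and 8.43 in control roots, the one genotype without overlap. Pokkali read 11.26, 11.26 and 10.52 in salt roots, against 9.90, 10.72 and 10.33 in control roots. The change of 0.77 (SE 0.33) did not pass (adjusted p = 0.177). The change depended on the setting. With the replicate number as a block shared by the genotypes it was 0.85 (adjusted p = 0.0133), with the block within genotype 0.91 (adjusted p = 0.0206), without the 3 arrays between genotypes 0.33 (adjusted p = 0.671) and with the clock gene covariate 0.25 (adjusted p = 0.594). Number 3 was below number 2 by 1.37 (SE 0.27, adjusted p = 0.00413) over the genotypes.

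Some members differed between replicate numbers, at shares not far from those of genes. With the groups held constant, 4 of 50 members (8%) differed between numbers 3 and 2, where 6.15% of rice probe sets and 12.1% of genes did. OsC3H37 (-1.37), OsC3H22 (-0.37) and OsC3H32 (-0.31) were lower in number 3, and OsC3H19 (0.33) was higher. Between numbers 2 and 1 also 4 members (8%) differed, where 2.83% of rice probe sets and 5.65% of genes did. OsC3H16 (-0.74) and OsC3H65 (-0.21) were lower in number 2, and OsC3H31 (0.29) and OsC3H32 (0.26) were higher. Between numbers 3 and 1 none passed in limma, where 1.38% of rice probe sets and 2.33% of genes did, and 10 members (20%) had an unadjusted p under 0.05, as did 16.3% of rice probe sets. OsC3H37 averaged 9.36 over 7 arrays of number 3, 10.54 over 8 arrays of number 2 and 9.77 over 8 arrays of number 1. OsC3H16 averaged 4.60 in number 3, 4.66 in number 2 and 5.39 in number 1.

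**Figure D4:**
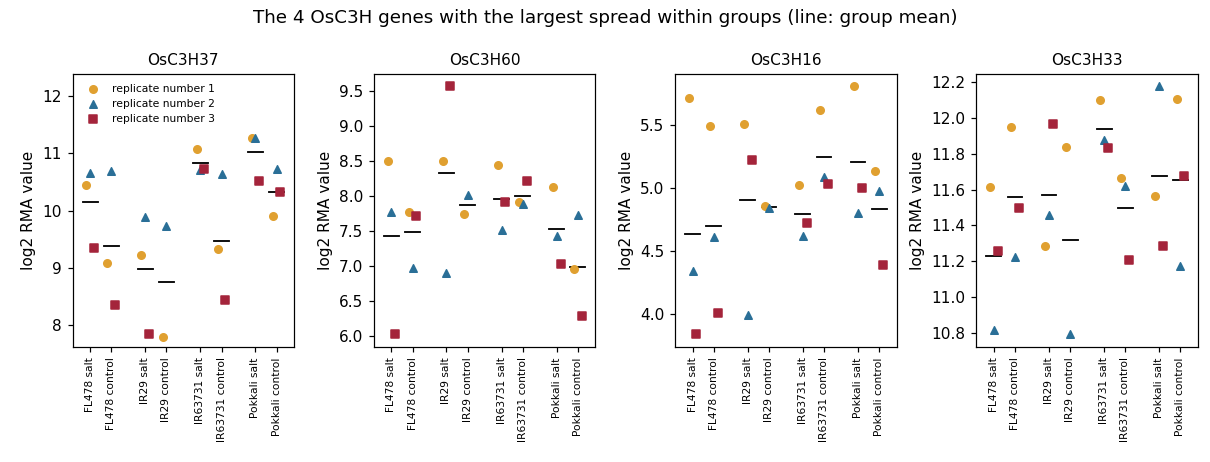
Log2 values of OsC3H37, OsC3H60, OsC3H16 and OsC3H33 in every array, by genotype and treatment, with a symbol for each replicate number and a line at each group mean. These 4 members had the largest standard deviations within groups (0.40 to 0.86), and arrays of 1 group differ by over 2 log2 units for OsC3H37 and OsC3H60.

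Within single genotypes few members passed. In FL478, 1 of 50 passed, OsC3H59, against 0.96% of rice probe sets and 1.99% of genes. OsC3H59 read 6.81, 6.59 and 6.62 in FL478 salt roots, against 6.18, 6.24 and 6.27 in FL478 control roots, without overlap. Its change of 0.44 (SE 0.099, adjusted p = 0.0371) was no longer called without any 1 of the 6 FL478 arrays or of Pokkali control replicate 1 or Pokkali salt replicate 1, where the change was 0.38 to 0.48 and the adjusted p 0.0502 to 0.162. Replicate numbers 1, 2 and 3 deviated together between the treatments in FL478 and in IR63731. With the shared block 4 members passed in FL478, all higher, which were OsC3H59, OsC3H23 (adjusted p = 0.0247), OsC3H49 (adjusted p = 0.0383) and OsC3H39 (adjusted p = 0.0405), where 2.81% of rice probe sets and 5.86% of genes did. With the block within genotype 3 of these passed and OsC3H49 did not (adjusted p = 0.0531), where 2.65% of rice probe sets and 5.49% of genes did. Without the block their changes in FL478 were 0.44, 0.78, 0.56 and 0.56.

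In Pokkali, 1 of 50 passed, OsC3H35, against 0.341% of rice probe sets and 0.676% of genes. Its change there was 0.99 (SE 0.21, adjusted p = 0.0468), close to a doubling at this probe set. The call was lost on leaving out any of 19 of the 23 arrays, with a change of 0.78 to 1.13 and an adjusted p of 0.0536 to 0.229. It was also lost in 6 of 11 other settings. Neither of the gene's 2 other probe sets passed in Pokkali, so the call there rests on 1 probe set. In IR29 none passed, against 0.343% of rice probe sets and 0.570% of genes. OsC3H35 came nearest, with a change of 1.02 (SE 0.23, adjusted p = 0.0739), and 6 members (12%) had an unadjusted p under 0.05, as did 9.15% of rice probe sets. In IR63731 none passed either, against 0.0717% of rice probe sets and 0.134% of genes, and 6 members had an unadjusted p under 0.05, as did 8.22% of rice probe sets. OsC3H49 had the smallest adjusted p in IR63731 (0.309), with a change of 0.55.

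No member was shown to respond differently between genotypes. The test over the differences of the 4 salt effects called 0 of 50 members in limma, against 0.0035% of all rice probe sets and 0.00559% of genes. At an unadjusted p under 0.05 there were 0 members, against 4.26% of rice probe sets. For OsC3H35 the salt effects were 0.35 in FL478, 1.02 in IR29, 0.62 in IR63731 and 0.99 in Pokkali. The difference FL478 minus Pokkali was -0.64, with a 95% confidence interval of -1.26 to -0.02 before adjustment. For OsC3H59 the salt effects were 0.44 in FL478, 0.20 in IR29, 0.15 in IR63731 and 0.03 in Pokkali, and the difference FL478 minus Pokkali was 0.41, with an interval of 0.12 to 0.70 before adjustment. Intervals of this width leave differences of sizeable extent possible, and with adjustment over all probe sets neither difference passed (adjusted p = 0.930 and 0.897).

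Without salt, 4 of 50 members (8%) differed in signal between the control roots of the 4 genotypes. This compares with 6.68% of rice probe sets and 10.5% of genes, so the members' share was near the background. Whether the probes match the sequences of the 4 genotypes equally well was not tested, so a difference in signal need not be one in transcript level. OsC3H59 was lowest in FL478, OsC3H35 and OsC3H3 were lowest in Pokkali, and OsC3H23 was lowest in FL478. OsC3H59 (F = 14.4, adjusted p = 0.00192) read 6.18, 6.24 and 6.27 in FL478, 6.57 and 6.73 in IR29, 6.63, 6.28 and 6.59 in IR63731, and 6.90, 6.94 and 6.76 in Pokkali. FL478 arrays lay below all others, and FL478 minus Pokkali was -0.64 (SE 0.099, adjusted p = 0.000435). IR63731 was also below Pokkali (-0.36, adjusted p = 0.0466), and the other pairs did not pass.

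OsC3H35 (F = 11.8, adjusted p = 0.00491) read 8.98, 8.95 and 8.99 in FL478, 9.14 and 8.95 in IR29, 8.72, 8.71 and 8.33 in IR63731, and 7.81, 7.86 and 8.00 in Pokkali. Pokkali lay below the other 3 without overlap. FL478 was above Pokkali by 1.08 (SE 0.21, adjusted p = 0.00352), and Pokkali minus IR29 was -1.15 (SE 0.23, adjusted p = 0.00559). The IR63731 minus Pokkali difference was 0.70 (adjusted p = 0.0810). The gene's other probe sets did not pass this test (adjusted p = 0.339 and 0.372), so the call rests on 1 probe set. Under salt the Pokkali mean of 8.88 ± 0.38 (SD, n = 3) was again the lowest of the 4, and the IR29 mean of 10.06 ± 0.21 (SD, n = 3) the highest.

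OsC3H3 (F = 10.5, adjusted p = 0.00838) read 3.08, 3.00 and 3.15 in FL478, 3.14 and 3.15 in IR29, 3.17, 3.18 and 3.38 in IR63731, and 2.57, 2.54 and 2.63 in Pokkali, all at the dim end of the array. Pokkali differed from each of the other genotypes, with FL478 minus Pokkali at 0.50 (adjusted p = 0.0297), IR63731 minus Pokkali at 0.67 (adjusted p = 0.00343) and Pokkali minus IR29 at -0.57 (adjusted p = 0.0275). Salt arrays of Pokkali, at 2.57, 2.73 and 2.83, were also below all other salt arrays.

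OsC3H23 (F = 6.61, adjusted p = 0.0482) read 5.49, 5.57 and 5.36 in FL478, 5.82 and 6.01 in IR29, 6.26, 6.19 and 6.10 in IR63731, and 6.37, 6.24 and 6.19 in Pokkali. FL478 lay below the others without overlap, and FL478 minus Pokkali was -0.79 (SE 0.20, adjusted p = 0.0235). The call was lost on leaving out any of 18 of the 23 arrays, with adjusted p up to 0.186 without FL478 control replicate 3, and also without the 3 arrays between genotypes (adjusted p = 0.181). OsC3H22, the gene next to OsC3H23 with none between them, also had its lowest control mean in FL478 (6.02, against 6.21 to 6.56 in the other genotypes), but no pair of control groups passed for it. A lowest mean in FL478 control roots was not particular to these neighbours. Members on other chromosomes, such as OsC3H27, OsC3H11 and OsC3H53, had it too, while many others were lowest in another group.

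Next in this comparison came OsC3H12 and OsC3H44, which did not pass (adjusted p = 0.118 and 0.135). OsC3H12 read 8.66, 8.52 and 8.75 in FL478, 8.27 and 8.40 in IR29, 8.39, 8.32 and 8.27 in IR63731, and 8.30, 8.26 and 8.34 in Pokkali. OsC3H44 read 7.66, 7.88 and 7.85 in FL478, 8.15 and 7.93 in IR29, 8.05, 8.18 and 8.02 in IR63731, and 7.90, 7.69 and 7.85 in Pokkali. FL478 lay above the others without overlap for OsC3H12, at the highest of its 4 probe sets. The next probe set of OsC3H12, with a mean level of 7.96, had adjusted p = 0.994 in this test. Those at 3.92 and 3.37 had adjusted p = 0.921 and 0.561. For OsC3H44 the FL478 arrays lay below those of IR29 and IR63731 and among those of Pokkali. The second probe set of OsC3H2 passed this test (adjusted p = 0.00416) while its main probe set did not (adjusted p = 0.573).

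By pairs of genotypes, FL478 against Pokkali gave 4 members (8%, against 4.36% of rice probe sets and 6.97% of genes), IR63731 against Pokkali gave 2 (4%, against 3.6% and 5.47%), and Pokkali against IR29 gave 2 (4%, against 4.15% and 6.88%). FL478 against IR29 (1.38% and 1.84%), FL478 against IR63731 (2.44% and 3.82%) and IR63731 against IR29 (0.893% and 1.2%) gave 0 in limma. At an unadjusted p under 0.05 they gave 5 for FL478 against IR29 (10%, against 9.6% of rice probe sets), 8 for FL478 against IR63731 (16%, against 11.5%) and 2 for IR63731 against IR29 (4%, against 8.26%).

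**Figure D5:**
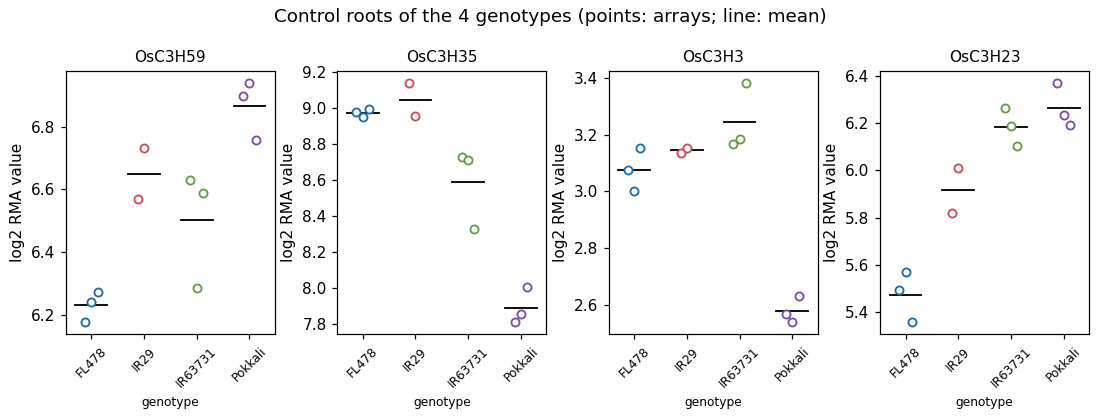
Log2 values of OsC3H59, OsC3H35, OsC3H3 and OsC3H23 in control roots of the 4 genotypes, with a point for each array and a line at each mean. FL478 is lowest for OsC3H59 and OsC3H23, and Pokkali is lowest for OsC3H35 and OsC3H3.

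Genes of related pathways were set beside the members. In the mean of 4 genotypes 16.1% of the genes measured passed under salt, 10.7% higher and 5.41% lower. Whether the share of any list differed from this was not tested. Of 24 abscisic acid and dehydration genes, 5 were higher and 1 lower under salt in the mean of 4 genotypes, with a median change of 0.07. They included RAB21, a dehydrin (0.79, adjusted p = 0.000557), and ABA8OX2, which breaks down abscisic acid (0.49, adjusted p = 0.00338), and the kinase gene OsSAPK3 was the lower one (-0.20, adjusted p = 0.0404). Of 10 splicing genes 1 was higher, the splicing factor RSZ23 (0.40, adjusted p = 0.000191). A further 7 genes were picked by an RBP or RGP symbol, which does not show that their proteins bind RNA. Of these 7, 1 was higher, RBP (0.43, adjusted p = 0.0444). Among 13 genes of A20/AN1 zinc finger proteins, a class known from stress tolerance, OsSAP8 (0.27, adjusted p = 0.00428) and OsSAP16 (0.14, adjusted p = 0.0395) were higher and none was lower. Of 18 brassinosteroid genes 1 was higher, DWARF (0.33, adjusted p = 0.0334), and of 4 DOF factor genes none passed. Median changes were 0.09 for splicing genes, 0.02 for the 7 genes with an RBP or RGP symbol and -0.04 for the A20/AN1 genes. They were 0.08 for brassinosteroid genes and -0.06 for DOF genes.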

How the data were processed

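Root RNA was hybridised to Affymetrix rice arrays. The authors deposited log2 values. Per the submitters' processing notes these came from RMA. Its version and the annotation's build were not given in the sources used here, and coordinates were left out. After removal of 123 AFFX controls and 64 reporters, 57194 of 57381 probe sets were tested. The annotation listed 1 gene for 22436 of all probe sets, several for 95 and none for 34663. RefSeq sequences of the members were not used here.

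The 23 arrays were modelled by limma 3.58.1 (R 4.3.3) with a mean for each of 8 groups and a common spread. P-values were two-sided and adjusted by Benjamini-Hochberg over all rice probe sets, and an adjusted p under 0.05 passed. Differences between the 4 genotypes were tested with moderated F-tests over all of them. The labels call the replicates biological and do not say what a replicate number stands for.

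The members, the gene lists, the tests and the alternatives were chosen with earlier results of these data known. Values by array are given for members called in a salt comparison and for the 6 members with the smallest p between control genotypes. They are also given for the 3 highest and 3 lowest by level. For some of these members only the lowest and highest array are given, with or without the median. Of each list the text gives up to 2 genes each way with the smallest p. Any other member given by name, such as OsC3H37, OsC3H22, OsC3H16, OsC3H60 and OsC3H20, falls outside this rule and was chosen after its values were seen.

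Same-numbered salt and control arrays deviated together in FL478 (correlations 0.421, 0.197 and 0.287) and IR63731 (0.142, 0.296 and 0.252), each pair over 0.1. The main fit nevertheless has no term for the replicate number, so its results leave this pairing out. Only the 2 block settings take it in, and calls that differ there are given beside the main ones. In IR29 (-0.179 and 0.119) and Pokkali (-0.066, -0.0156 and 0.316) not every pair was over 0.1.

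The code was tested on simulated data. In the mean of 4 genotypes the test called 59 of 67 probe sets set to change 1.5-fold, all 67 set to 2-fold and all 66 set to 4-fold. In FL478 these counts were 28, 57 and 64, and between control genotypes 31, 51 and 63. Figures were drawn with Python 3.11.15, pandas 2.3.3 and matplotlib 3.10.9. The alternatives tried are described in the closing section.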

Additional observations from a re-analysis of the deposited data

How the results depend on the processing

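Percentages in this paragraph are shares of the rice probe sets tested that passed in the same setting, unless genes are named. Shares of genes, whose levels are nearer to those of the members, were larger. In the mean they were 16.1% in the main fit, 23.7% with the replicate block, 9.25% without the 3 arrays and 6.42% with the 3′ minus 5′ covariate. In FL478 they were 1.99% in the main fit and 5.86% with the replicate block, and in Pokkali 0.676% and 3.28%. In the mean of 4 genotypes 11 members were called (8 higher and 3 lower), against 8.31%. The replicate block gave 19 (13 higher and 6 lower, against 12.4%). Leaving out the 3 arrays between genotypes gave 4 (4.73%), and the 3′ minus 5′ covariate gave 5 (3.16%). Leaving out single arrays gave 7 to 13, the lowest without IR29 control replicate 1 (5 higher, 2 lower), where 3257 to 5082 rice probe sets passed. Quantile normalization again (7.6%) gave 11 with another split, 6 higher and 5 lower, of which 9 were shared. Leaving out IR29 control replicate 2 gave 6 higher and 6 lower. In FL478 (1 called, against 0.96%), the replicate block gave 4 (2.81%) and the replicate block within genotype 3 (2.65%). The filter at the median level gave 3 (3.01%) and array weights 2 (1.21%). There, eBayes with trend and robust (0.851%), only the arrays compared (0.101%), the fit without the 3 arrays (0.268%) and the clock gene covariate (1.11%) each gave 0. Single arrays left out gave 0 to 2, where 141 to 716 rice probe sets passed. In Pokkali (1 called, against 0.341%), the replicate block gave 2 (1.63%). The block within genotype (0.892%), quantile normalization (0.294%), only the arrays compared (0.0455%) and the fit without the 3 arrays (0.297%) each gave 0. So did the 3′ minus 5′ covariate (0.0455%) and the clock gene covariate (0.308%). Leaving out single arrays gave 0 to 1 in Pokkali, where 62 to 230 rice probe sets passed. In IR29 (0 called, against 0.343%), the replicate block gave 1 (0.799%), OsC3H35 (adjusted p = 0.0382). Single arrays left out gave 0 to 1 in IR29, where 18 to 262 rice probe sets passed. IR63731 and the differences of salt effects between genotypes stayed at 0 in every setting run. Between control genotypes (4 called, against 6.68% and, of genes, 10.5% in the main fit), 3 to 5 members were called over the settings. Shares in the other settings are not given here for this comparison, so the range cannot be set against a background. Leaving out single arrays gave 3 to 4 members, where 2848 to 3990 rice probe sets passed. In the mean, OsC3H35, OsC3H49 and OsC3H2 kept their call in all 10 settings and on leaving out each of the 23 arrays, whereas OsC3H5 lost it in 1 setting. OsC3H37, which passed in the block settings alone, ran from 0.25 (clock gene covariate) to 1.01 (without IR29 control replicate 2). Over the named genes, 519 values kept their side of the threshold and, where the test has a direction, the direction too. Another 121 lost the call without reversing, and 1 reversed, OsC3H53 by its dimmest probe set (-0.046). The F-tests between control genotypes have no direction, and OsC3H12 and OsC3H44 kept their side there by not passing. The cause of these changes was not tested. The fit without the 3 arrays has fewer samples. With 2 or 3 arrays a group, changes under 1.5-fold within 1 genotype are often missed, and the 8 members under a level of 4 carry little signal.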

Other observations

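With the replicate number as a block shared by the genotypes, 8 further members passed in the mean of 4 genotypes, where 12.4% of rice probe sets and 23.7% of genes did. OsC3H37, OsC3H45 (0.22, adjusted p = 0.0230), OsC3H32 (0.20, adjusted p = 0.0234), OsC3H23 (0.30, adjusted p = 0.0374) and OsC3H22 (0.23, adjusted p = 0.0454) were higher under salt. OsC3H63 (-0.18, adjusted p = 0.0375), OsC3H65 (-0.16, adjusted p = 0.0119) and OsC3H19 (-0.26, adjusted p = 0.0213) were lower. With the block within genotype 13 members passed (11 higher, 2 lower), where 11% of rice probe sets and 21.6% of genes did. Of those 8, OsC3H37, OsC3H23, OsC3H22 and OsC3H65 passed there too, whereas OsC3H32 (adjusted p = 0.0852), OsC3H45 (adjusted p = 0.0674), OsC3H63 (adjusted p = 0.137) and OsC3H19 (adjusted p = 0.0627) did not. OsC3H41 (adjusted p = 0.0532) and OsC3H66 (adjusted p = 0.0592), which passed without a block, did not pass in it either.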
